A study of Drosophila melanogaster with 3 samples.

Results

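The cuticle protein genes of Drosophila melanogaster are described here by where binding of pdm3 was mapped around them in white prepupae. A gene was counted as a cuticle protein gene when it is protein-coding and its symbol starts with Cpr, Lcp or Edg and a digit, or with Ccp84 or Twdl. This rule took 120 genes with 132 annotated start sites, out of 13945 protein-coding genes with 19607 start sites on the 6 chromosome arms. The 120 genes were 70 Cpr, 25 Twdl, 15 Lcp, 7 Ccp84 and 3 Edg genes. The rule uses their symbols alone.

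The study holds 1 group of 3 biological replicates and no second genotype, stage or treatment. Each replicate is whole white prepupae, both sexes pooled, of a transgenic line that stably expresses pdm3 with GFP at its C-terminus, and their age in hours is not given. Chromatin was sonicated to between 200 and 800 bp, immunoprecipitated through the GFP tag and sequenced. For each replicate there is a list of 30000 candidate peaks, for the replicates pooled another candidate list of 30000, and an optimal list of 8164 peaks that passed the authors' test of reproducibility between replicates. Each peak carries a signal value set by the authors, whose normalization is not given in the sources used here, so it is read only as a rank among the peaks of 1 list. Library depth is unknown, since the lists give no reads. Which promoter drives the fusion is likewise not stated. Whole animals mix epidermis with all other tissues, so binding in few cells and weak binding in many cannot be told apart.

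The cuticle is the outer skeleton that the epidermis lays down from chitin fibres and proteins, and at the white prepupa stage the last larval cuticle is being turned into the puparium. Most Cpr, Lcp, Ccp84 and Edg proteins carry the chitin-binding Rebers and Riddiford domain, while the Twdl (Tweedle) proteins form a family of their own with another conserved domain. Larval cuticle genes (Lcp), pupal ones (Edg) and many Cpr genes are switched on and off in waves by ecdysone and the nuclear receptors that follow it. pdm3 is a transcription factor with a POU domain and a homeodomain, and POU proteins as a class are known to bind the octamer ATGCAAAT and its shorter form ATGCAA.

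The sequences that the results below turn on are of 2 kinds, read from the RefSeq genome of assembly dm6 and written 5′ to 3′. The first set is the 101 bases centred on an optimal summit within 1 kb of a cuticle protein gene. It is shown for the strongest of these peaks and for one inside the gene's own intron. Both are given on the plus strand, at chr3L:16364347-16364447 for Cpr72Eb and chr3L:1829675-1829775 for Cpr62Ba. Capitals mark matches, on either strand, to the motifs searched, which were the octamer ATGCAAAT with its shorter form ATGCAA, the DREF site TATCGATA, the GAGA motif GAGAG, the ftz-f1 site CAAGGTCA, the Zelda site CAGGTAG, the Grainyhead form AACNGGTT and, as the TATA box of core promoters, TATAAA. The shorter form of the octamer lies within it, so each match to the octamer is also one to the shorter form.
Cpr72Eb summit: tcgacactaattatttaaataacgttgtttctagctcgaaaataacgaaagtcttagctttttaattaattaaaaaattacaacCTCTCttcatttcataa
Cpr62Ba summit: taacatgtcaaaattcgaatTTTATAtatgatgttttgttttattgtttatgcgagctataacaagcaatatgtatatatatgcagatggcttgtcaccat
Neither window holds ATGCAA. The window of Cpr72Eb holds GAGAG on the minus strand, and that of Cpr62Ba holds TATAAA on the minus strand.

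The second set is the 150 bases upstream of a start site, on the strand of the gene, for 1 gene with a strong peak nearby and 3 genes with none. Cpr72Eb (chr3L:16364749-16364898, plus strand) has the strongest optimal peak among the members within 1 kb. Edg84A (chr3R:6684295-6684444, plus strand) encodes a pupal cuticle protein and is a textbook target of the nuclear receptor ftz-f1, whose site CAAGGTCA is matched here on the opposite strand. Ccp84Ac (chr3R:6696272-6696421, minus strand) and Cpr64Ad (chr3L:4215229-4215378, plus strand) hold the POU octamer together with TATAAA. Capitals again mark motif matches.
Cpr72Eb upstream: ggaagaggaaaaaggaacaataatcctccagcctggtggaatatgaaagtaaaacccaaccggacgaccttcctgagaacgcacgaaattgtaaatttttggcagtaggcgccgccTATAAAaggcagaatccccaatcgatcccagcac
Edg84A upstream: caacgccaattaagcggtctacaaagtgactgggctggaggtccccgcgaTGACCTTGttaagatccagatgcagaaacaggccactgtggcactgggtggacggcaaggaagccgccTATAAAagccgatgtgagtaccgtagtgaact
Ccp84Ac upstream: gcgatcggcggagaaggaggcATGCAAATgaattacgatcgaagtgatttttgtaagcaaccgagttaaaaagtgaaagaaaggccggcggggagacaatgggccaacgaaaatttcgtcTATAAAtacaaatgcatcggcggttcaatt
Cpr64Ad upstream: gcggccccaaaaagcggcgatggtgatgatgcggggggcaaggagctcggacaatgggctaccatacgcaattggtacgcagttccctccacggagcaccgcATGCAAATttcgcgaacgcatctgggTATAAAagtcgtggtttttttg
All 4 hold TATAAA close to the start site, at −34 in Cpr72Eb, −32 in Edg84A, −30 in Ccp84Ac and −22 in Cpr64Ad, counted from the start site with −1 as the base before it. The match to CAAGGTCA in Edg84A starts at −100, and the octamer starts at −129 in Ccp84Ac and at −48 in Cpr64Ad. The nearest optimal summit lay 75250 bp from Edg84A, 63424 bp from Ccp84Ac and 12210 bp from Cpr64Ad, against 502 bp from Cpr72Eb.

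Cuticle protein genes had few reproducible pdm3 summits close to their start sites. Within 500 bp, 0 of 120 cuticle protein genes had an optimal summit (exact 95% interval up to 3.03%), against 17.6% of all protein-coding genes. Within 1 kb there were 6 of 120 (5%, interval 1.86% to 10.6%), against 21.3% of all genes. Within 5 kb there were 34 of 120 (28.3%, interval 20.5% to 37.3%), against 42.2% of all genes. At each of these 3 distances the whole interval lay under the share of all genes. The intervals are exact binomial ones that cover counting error over genes only and take genes as independent. Many members are neighbours that share a summit, so the intervals are too narrow. When each summit was counted only for the gene with the nearest start site, 17 members had one within 5 kb (14.2%, against 23.1% of all genes). Of the optimal peaks that the top of the other replicates' lists also covered, 3 members had one within 1 kb without replicate 1, 4 without replicate 2 and 3 without replicate 3. The share of all genes was not counted for these stricter sets.

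The longer candidate lists, which the authors made as input for their reproducibility test, gave another picture at larger distances. Within 500 bp of a start site 16 cuticle protein genes had a pooled candidate summit (13.3%, interval 7.82% to 20.7%), against 31.2% of all genes. Within 1 kb there were 35 (29.2%, interval 21.2% to 38.2%), against 37.4%, and within 5 kb there were 86 (71.7%, interval 62.7% to 79.5%), against 64.2%. The intervals at 1 and 5 kb hold the share of all genes. Some of these genes had an optimal summit at the same distance and others had candidates only. Of the 35 members with a pooled candidate within 1 kb, 6 had an optimal summit there (17.1%, interval 6.56% to 33.6%), against 56.9% of all such genes, and within 5 kb it was 34 of 86 (39.5%, interval 29.2% to 50.7%), against 65.7%.

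The 3 replicates, each read from its own candidate list, gave the same order close to start sites. Within 500 bp, replicate 1 had 15 members with a summit (12.5%, against 34.1% of all genes), replicate 2 had 22 (18.3%, against 34.5%) and replicate 3 had 19 (15.8%, against 37.5%). The mean over replicates was 15.6% ± 2.93 of members and 35.4% ± 1.83 of all genes (SD, n = 3). Within 1 kb the counts were 34 in replicate 1 (28.3%, against 41.2%), 35 in replicate 2 (29.2%, against 41.3%) and 41 in replicate 3 (34.2%, against 44.2%), a mean of 30.6% ± 3.15 of members and 42.3% ± 1.71 of all genes (SD, n = 3). At both distances the highest replicate for members stood below the lowest for all genes. Within 5 kb the counts were 81 in replicate 1 (67.5%, against 69.5%), 82 in replicate 2 (68.3%, against 69.9%) and 92 in replicate 3 (76.7%, against 71.5%), so the order was not the same in every replicate and the means of 70.8% ± 5.07 and 70.3% ± 1.08 (SD, n = 3) differed by less than the spread between replicates.

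**Figure D1:**
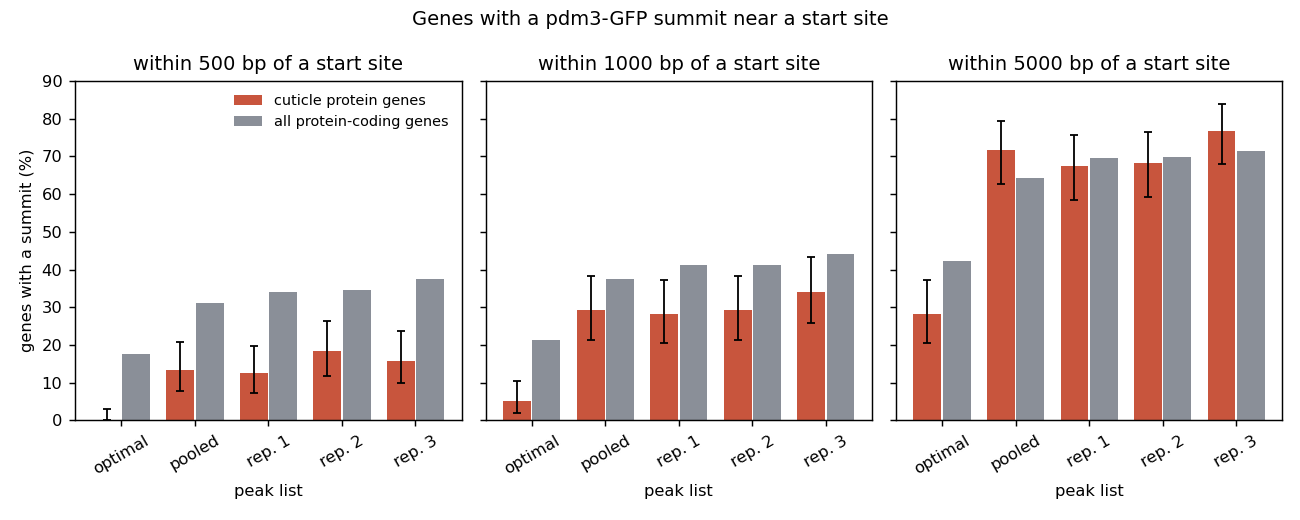
Share of genes with a pdm3-GFP summit within 500, 1000 and 5000 bp of a start site (y axis, percent) in the optimal list, the pooled candidate list and the candidate list of each replicate (x axis), for the 120 cuticle protein genes (red) and all 13945 protein-coding genes (grey). Error bars are exact 95% binomial intervals over genes. The red bars stand below the grey ones in all 5 lists at 500 and 1000 bp, with 0 members in the optimal list at 500 bp, while at 5000 bp the optimal list is the only one whose red bar and interval lie wholly below the grey bar.

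When each replicate list was cut to its 8164 highest peaks, the length of the optimal list, the gap at 5 kb was also seen in every replicate. Within 1 kb there were 6 members in replicate 1 (5%, against 23.4% of all genes), 4 in replicate 2 (3.33%, against 22.7%) and 7 in replicate 3 (5.83%, against 25.2%), a mean of 5.67 ± 1.53 genes (SD, n = 3). Within 5 kb there were 35 in replicate 1 (29.2%, against 45.1%), 32 in replicate 2 (26.7%, against 43.8%) and 41 in replicate 3 (34.2%, against 47%), a mean of 36 ± 4.58 genes (SD, n = 3). The replicate lists placed their summits at different members. Only 15 members had a candidate within 1 kb in all 3 replicate lists (12.5%, against 30.1% of all genes), and 62 had none in any (51.7%, against 44.3%). Within 5 kb, 66 members had one in all 3 lists (55%, against 58.2%) and 20 had none in any (16.7%, against 18.2%), and 15 of those 20 were Twdl genes.

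The distances to the nearest summit show where members and all genes part. The nearest optimal summit lay at a median of 10482.5 bp from a cuticle protein gene and of 6986 bp from a protein-coding gene. No member had it within 250 bp, where 13.2% of all genes had it, and none between 250 and 500 bp, where 4.40% did. From 500 bp to 5 kb the share of members was near that of all genes or above it. Each gene counts once, by its nearest summit, so genes with a summit under 500 bp cannot enter these bins. The later bins alone therefore show no excess of members. In this range 6 (5%) lay between 500 and 1000 bp, against 3.62% of all genes, 9 (7.5%) between 1 and 2 kb, against 6.06%, and 19 (15.8%) between 2 and 5 kb, against 14.9%. In the pooled candidate list 10 members (8.33%) had a summit within 250 bp, against 24.2% of all genes, while 19 (15.8%, against 6.16%) had their nearest at 500 to 1000 bp and 25 (20.8%, against 8.81%) at 1 to 2 kb. The median distance in that list was 2028.5 bp for members and 2525 bp for all genes.

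**Figure D2:**
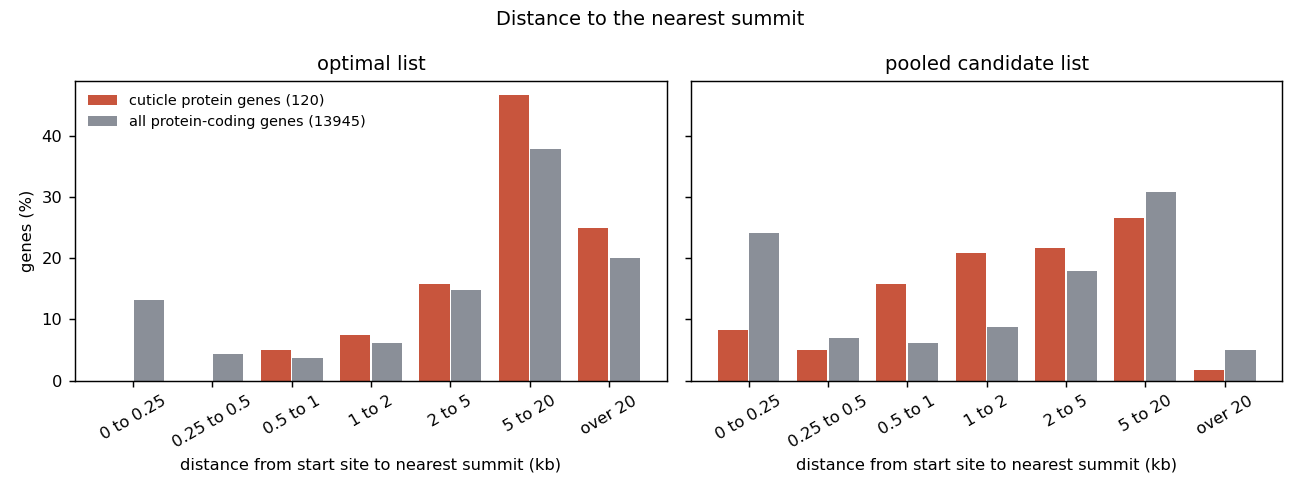
Share of genes (y axis, percent) by distance from a start site to the nearest summit (x axis, kb) in the optimal list (left) and the pooled candidate list (right), for cuticle protein genes (red) and all protein-coding genes (grey). Red bars are at 0 or low in the bins under 0.5 kb and stand above grey ones between 0.5 and 5 kb. Each gene counts once, so genes with a summit under 0.5 kb are absent from the later bins.

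Cuticle protein genes are short genes with few start sites, and a gene with more start sites has more places where a summit is counted. Gene length alone was not varied. Their median length was 970 bp (range 413 to 18590), against 2166 bp over all genes, and 109 (90.8%) had 1 start site, against 73.5%. Among the 7286 genes with 1 start site and a length of at most 2918 bp, the 90th percentile of members, 12% had an optimal summit within 1 kb and 35% within 5 kb. The 102 members among them had 5 within 1 kb (4.90%, interval 1.61% to 11.1%) and 29 within 5 kb (28.4%, interval 19.9% to 38.2%). The first interval ends under the share of these short genes, though close to it, and the second holds it. Neighbouring members are not independent, so these intervals are too narrow and the first is not clearly separate from 12%.

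Reads of repeated sequence are hard to place, and some members are near-identical tandem copies. The share of 50-base words that occur once in the genome, within 1 kb of a start site, had a median of 100% in members and in all genes. It was under 90% in 12 members (10%) and in 590 genes (4.23%), lowest in Lcp65Ab1 (30.6%), Lcp65Ab2 (30.8%), Cpr65Ax2 (38.4%), Cpr65Ax1 (38.5%) and Lcp65Aa (61.3%). Summits at these members are uncertain. Over the 108 members at or above 90%, 6 had an optimal summit within 1 kb (5.56%) and 32 within 5 kb (29.6%), so the shares were close to those over all 120.

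The 6 members with an optimal summit within 1 kb were all Cpr genes, and for 5 of them the summit lay upstream of the start site. Cpr72Eb, which encodes a cuticle protein with the chitin-binding domain like the other 5, had the strongest, 502 bp upstream at chr3L:16364231-16364543 in intergenic DNA, with a signal value of 406 that ranked 1262 of 8164. In the replicate lists this peak ranked 1752, 901 and 1325 of 30000 in replicates 1, 2 and 3. These ranks are the top 5.84%, 3.00% and 4.42% of the lists. The peak of Cpr62Ba lay 783 bp upstream of 1 of its 2 start sites, in an intron of the gene itself (chr3L:1829631-1829819, signal value 247), and ranked 2432, 2595 and 3017 in replicates 1, 2 and 3. The peak of Cpr65Ea lay 980 bp upstream (signal value 91.1) and was near the end of the optimal list, at rank 8033, with 9776, 9205 and 7377 in replicates 1, 2 and 3. These ranks spread little between replicates, at mean percentiles of 4.42 ± 1.42, 8.94 ± 1.01 and 29.3 ± 4.18 for Cpr72Eb, Cpr62Ba and Cpr65Ea (SD, n = 3).

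The other 3 lie on arm 2R, and their peaks are of middle or low rank. Cpr49Ah had its peak 639 bp upstream (chr2R:12413113-12413532, signal value 148), and it ranked 5064, 10057 and 4992 in replicates 1, 2 and 3. Cpr47Ec had a summit 957 bp downstream of its start site (chr2R:11258809-11259228, signal value 153), ranked 4681, 5538 and 6255. Cpr47Ed had one 847 bp upstream (chr2R:11262443-11262862, signal value 101), ranked 9068, 6003 and 11084. Replicate 2 stood lower than the other replicates at Cpr49Ah and higher at Cpr47Ed. Just outside 1 kb came Cpr65Eb at 1199 bp and Cpr72Ea at 1209 bp. The first of these shares its peak with Cpr65Ea.

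In all, 30 optimal peaks lay within 5 kb of a cuticle protein gene, and all 30 overlapped a candidate in each of the 3 replicate lists. The optimal list was itself selected for reproducibility between replicates, so this overlap is no separate support. The median signal value of the 30 peaks was 141 (range 89.9 to 1517), against 173 over the optimal list, and 10 of the 30 reached that median. By place, 21 summits were intergenic, 8 in introns and 1 in a UTR exon. For 11 of the 30 the nearest start site was that of another gene. The strongest, with a signal value of 1517 and rank 68, lay in an intron of CG11309, 83 bp from a start site of that gene and 3995 bp from Cpr78Cc (chr3L:21304379-21304772). It ranked 69, 48 and 96 in replicates 1, 2 and 3. The second, with 963 and rank 224, lay in an intron of Pen, an importin alpha gene, 530 bp from its start site and 3217 bp from Cpr31A (chr2L:10057261-10057595).

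Among the peaks whose nearest start site was a member's, the pair at the Cpr72E genes led. Beside the peak of Cpr72Eb, another lay 1209 bp upstream of Cpr72Ea (chr3L:16361226-16361567, signal value 403), ranked 1169, 1131 and 1781 in replicates 1, 2 and 3. Cpr51A had 1 peak 3107 bp upstream (signal value 378) and 1 in its own intron, 1492 bp downstream of its start site (301), which lay 311 bp from a start site of CG30197. Cpr76Ba had a peak 1602 bp downstream (209), Cpr65Eb 2163 bp upstream (158), Cpr73D 1564 bp downstream in its intron (143), Cpr62Bc 2750 bp upstream (140) and Cpr12A 2211 bp upstream (138). Some other peaks within 5 kb stood nearer to another gene. At 3999 bp from Cpr66Cb and 114 bp from CG7083 the signal value was 221. It was 186 at 3654 bp from TwdlF and 220 bp from CG34305. At 4722 bp from TwdlC and 258 bp from CG31076 it was 154. TwdlC and Cpr65Ax2 (4480 bp) were the last members inside 5 kb, and Cpr62Bb (5439 bp) and Cpr65Az (5477 bp) the first outside.

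Among the weak peaks, the replicates ranked some alike and others not. The weaker peak of Cpr12A (signal value 109, 3956 bp upstream) ranked 7511, 6951 and 7035 in replicates 1, 2 and 3. At Cpr97Ea, whose peak lay 1214 bp upstream (signal value 112), replicates 1 and 3 ranked it 6062 and 6176 and replicate 2 ranked it 27769. At Cpr65Ay (105, 3293 bp downstream), replicates 2 and 3 ranked it 4251 and 7205 and replicate 1 ranked it 19291. Both rest on replicate lists that disagree, although both are in the optimal list.

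**Figure D3:**
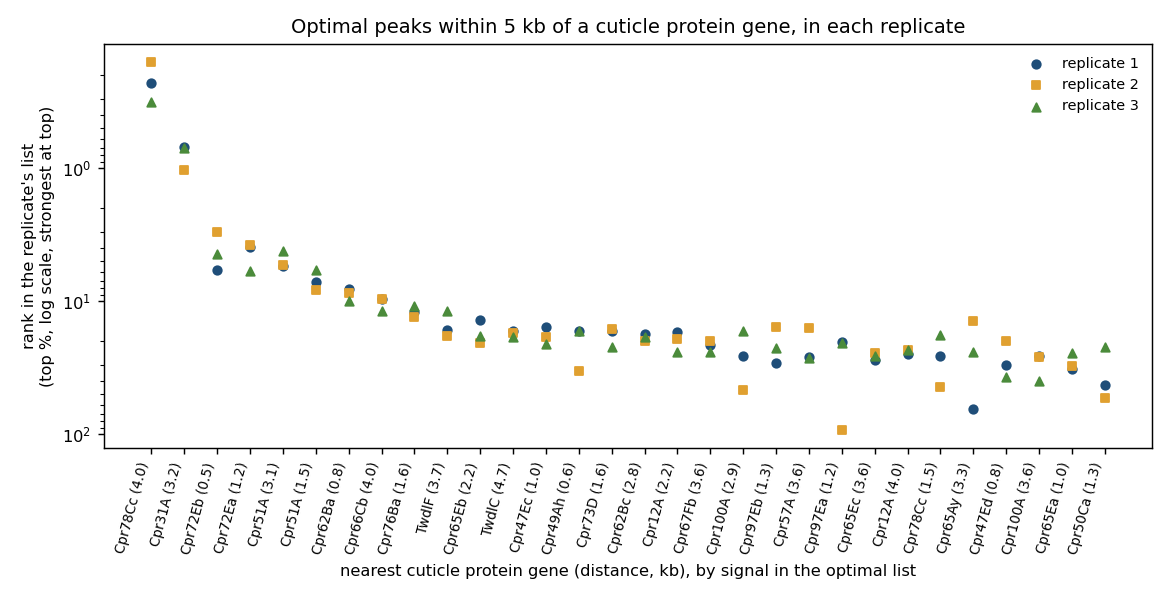
Rank in each replicate's own candidate list (y axis, top percent of 30000 peaks, log scale with the strongest at the top) of the 30 optimal peaks within 5 kb of a cuticle protein gene, ordered by signal in the optimal list (x axis, nearest cuticle protein gene with its distance in kb). Points are replicates 1 (circles), 2 (squares) and 3 (triangles). On this scale they lie no closer together for the strong peaks on the left than for several weaker ones. Replicate 2 stands apart at Cpr97Ea and replicate 1 at Cpr65Ay.

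Candidates near members were mostly weak. The 48 pooled candidates within 1 kb of a cuticle protein gene had a median signal value of 33.9 (range 22.2 to 406), against 63.9 over the 7772 within 1 kb of any protein-coding gene and 45.8 over the whole pooled list. The lowest value in the optimal list was 89.8, so most of these candidates stood below anything in it. After the 6 members with an optimal peak, the highest were at Cpr65Ay (63.7, 892 bp downstream) and TwdlE (61.0). TwdlE, a Tweedle gene, had the candidate closest to a start site of any member, 12 bp from it, and the replicates placed theirs 111, 4 and 1 bp away, at ranks 22219, 19534 and 9965. Cpr97Ea (58.3, 529 bp) and Cpr49Ae (58.3 at most within 1 kb) followed.

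By family, 30 of the 34 members with an optimal summit within 5 kb were Cpr genes. Of the 70 Cpr genes 6 had one within 1 kb (8.57%, interval 3.21% to 17.7%), against 21.3% of all genes, and 30 within 5 kb (42.9%, interval 31.1% to 55.3%), against 42.2%. Their median distance was 5857.5 bp, against 6986 bp over all genes. The pooled candidate list gave 25 within 1 kb (35.7%, against 37.4%) and 57 within 5 kb (81.4%, against 64.2%). The other 50 members, of the Lcp, Ccp84, Edg and Twdl families, had 0 within 1 kb (interval up to 7.11%) and 4 within 5 kb (8%, interval 2.22% to 19.2%). In the pooled list they had 10 within 1 kb (20%) and 29 within 5 kb (58%). So the low share of all 120 members within 5 kb came from these 50, while within 1 kb the Cpr genes were also below all genes. This split was made after the values were seen, and the difference between the families was not tested. Many of the 50 are neighbours, such as the 12 genes from TwdlM to TwdlD and the 8 from Edg84A to Ccp84Aa. Their counts rest on few separate places, and their intervals are too narrow.

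The 15 Lcp genes, named for the larval cuticle, had 0 within 1 kb, against 21.3% of all genes, and 1 within 5 kb (Lcp65Aa, 4033 bp), against 42.2%. Their median distance was 11942 bp, though 14 had a pooled candidate within 5 kb, against 64.2% of all genes. All but Lcp9 lie from Lcp1 to Lcp4 or between Lcp65Ag3 and Cpr65Az, so these counts rest on few separate places. Lcp1, Lcp2, Lcp3 and Lcp4, which encode major cuticle proteins of the third larval stage, stood 31376, 27834, 27176 and 24972 bp from the nearest optimal summit. Lcp2 and Lcp3 are neighbours that share 1 pooled candidate with a signal value of 56.2, at 325 and 200 bp from their start sites. Replicate 1 had it at 307 bp from Lcp2 and replicate 3 at 325 bp, while the nearest candidate of replicate 2 was 4060 bp away.

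The Ccp84 genes and their neighbour Edg84A lay far from optimal summits. All 7 Ccp84 genes had 0 within 5 kb, against 42.2% of all genes, at a median of 66963 bp. All 7 had a pooled candidate within 5 kb, against 64.2%. These 7 genes and Edg84A are neighbours within 20459 bp, so the counts rest on 1 place. Edg84A had its nearest optimal summit 75250 bp away and 2 weak pooled candidates within 1 kb, 572 bp upstream (signal value 31.8) and 194 bp downstream of its start site (27.6). Replicates 1 and 3 had a candidate 617 and 623 bp upstream, at ranks 14807 and 19929, near the first of these. Replicate 2 had one 152 bp downstream, at rank 21040, near the second. Edg78E, another pupal cuticle gene, had an optimal summit at 4309 bp, which lay nearer to Cpr78Cc (1532 bp, signal value 109). Its nearest candidates lay 4285 bp away in replicate 1, 315 bp downstream in replicate 2 and 188 bp upstream in replicate 3. Edg91, which encodes a glycine-rich pupal cuticle protein, had an optimal summit at 6141 bp and candidates 5273, 5 and 953 bp away in replicates 1, 2 and 3. At these 3 Edg genes the nearest candidates lay at unlike positions in at least 1 of the 3 replicates.

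The 25 Tweedle genes had few summits in the candidate lists as well. They had 0 optimal summits within 1 kb, against 21.3% of all genes, and 2 within 5 kb (TwdlF and TwdlC), against 42.2%. Their median distance was 19919 bp, against 6986 bp. In the pooled candidate list 2 had a summit within 1 kb (TwdlE, and TwdlT at 152 bp with a signal value of 34.9), against 37.4% of all genes. Within 5 kb there were 6, against 64.2%. In replicates 1, 2 and 3 the counts within 5 kb were 6, 7 and 8 of 25, against 69.5%, 69.9% and 71.5% of all genes. Of the 25 genes, 12 are neighbours from TwdlM to TwdlD and 4 from TwdlX to Twdlalpha, so these counts rest on few separate places.

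Most members sit in tandem clusters. With start sites up to 20 kb apart joined, the 120 genes formed 47 clusters, of which 15 held 3 or more members (87 genes in all), 1 was a pair and 31 were lone genes. An optimal summit lay within 5 kb of a member in 20 of the 47, which were 10 of the 15 larger clusters, the pair and 9 of the lone genes. Within 1 kb it was 5 clusters, all among the larger ones. In the larger clusters 6 of 87 genes (6.90%) had an optimal summit within 1 kb and 23 (26.4%) within 5 kb, and among lone genes it was 0 and 9 of 31 (29.0%). The spans of the 15 larger clusters, 243 kb together, held 8 optimal summits, or 3.29 per 100 kb, against 6.10 per 100 kb on the 6 arms. Pooled candidates were at 20.6 per 100 kb in the spans, against 22.4 on the arms.

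**Figure D4:**
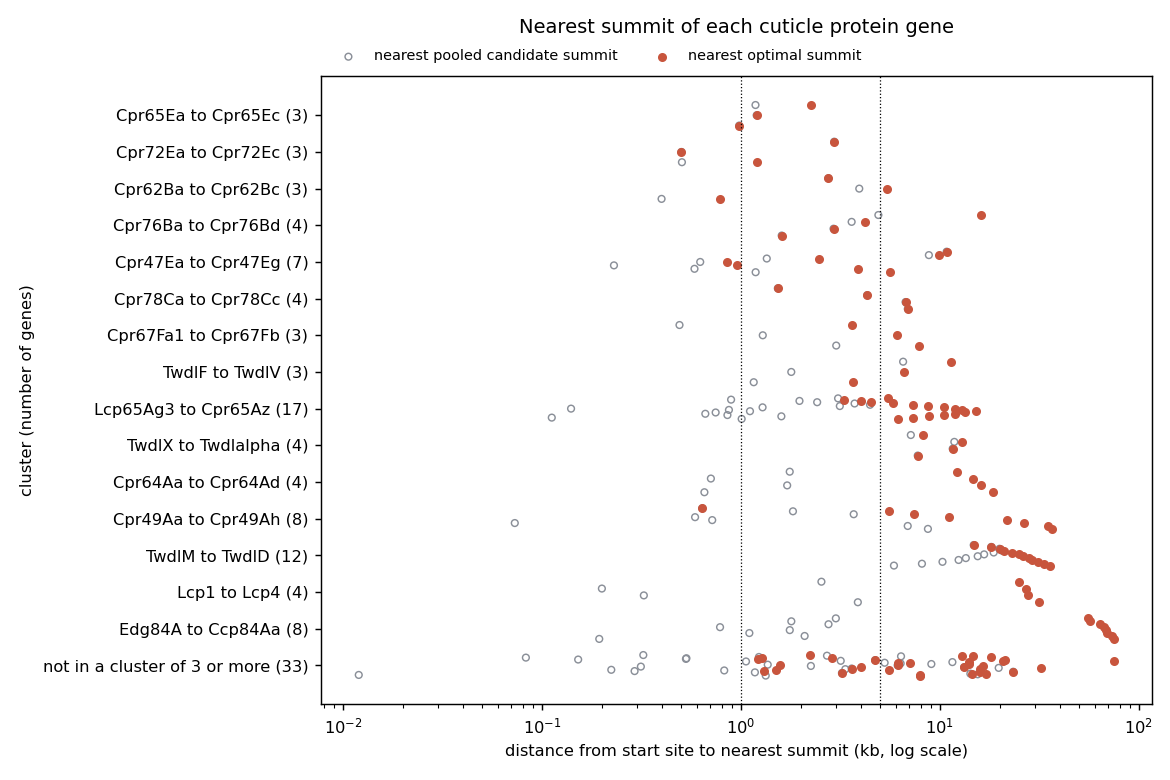
Distance from a start site to the nearest optimal summit (filled) and the nearest pooled candidate summit (open) of each of the 120 cuticle protein genes (x axis, kb, log scale), by cluster (y axis, number of genes in parentheses), clusters with the smallest median optimal distance at the top. Dotted lines mark 1 and 5 kb, and a filled point covers an open one where both lists share the summit. By cluster median, the Cpr65E and Cpr72E genes lie nearest to optimal summits, though single genes of other clusters lie nearer than some of them. The genes from Edg84A to Ccp84Aa, between 55611 and 75250 bp, and the lone gene Cpr92F, at 74533 bp, lie farthest.

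In the clusters of the Cpr65E and Cpr72E genes every member had an optimal summit nearby. All 3 Cpr65E genes and all 3 Cpr72E genes (chr3L:16362603-16367340) had one within 5 kb, at medians of 1199 and 1209 bp. With 5 kb added on each side, these 2 clusters held 3 and 2 optimal summits. The density was 16.8 and 13.6 summits per 100 kb, against 6.33 on arm 3L. The Cpr67F genes stood at 13.6 as well, with 2 summits beside the span and 1 of 3 genes within 5 kb. Densities from so few summits are coarse. On the same arm and by the same measure, Lcp65Ag3 to Cpr65Az stood at 2.43 and Cpr76B at 3.25, each with 1 summit. Cpr76B had 3 of 4 genes within 5 kb, all of a shared summit nearest to Cpr76Ba, and Cpr62B had 2 of 3. The 7 Cpr47E genes (chr2R:11251751-11278445) held 2 optimal and 7 pooled candidate summits in their span, with 4 genes within 5 kb of an optimal one. The 8 Cpr49A genes held 1 optimal summit, that of Cpr49Ah, in 38545 bp. Cpr78Cc led the Cpr78C genes, Cpr67Fb the Cpr67F genes (3635 bp from its summit) and TwdlF the cluster from TwdlF to TwdlV (3654 bp).

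The largest cluster runs from Lcp65Ag3 to Cpr65Az (chr3L:6130386-6161589) with 17 members that include larval Lcp65A genes. Its span held 1 optimal summit, the one 3293 bp from Cpr65Ay, and 11 pooled candidates. All 17 genes had a pooled candidate within 5 kb, 7 had one within 1 kb, and 3 had an optimal summit within 5 kb. The 5 members with the lowest share of unique sequence all lie in this cluster.

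In 5 of the larger clusters, with 32 members, no gene had an optimal summit within 5 kb. They were the X-linked cluster from TwdlX to Twdlalpha (nearest 7734 bp, at TwdlX), Cpr64Aa to Cpr64Ad (12210 bp, at Cpr64Ad), TwdlM to TwdlD (14779 bp, at TwdlD), Lcp1 to Lcp4 (24972 bp, at Lcp4) and Edg84A to Ccp84Aa (55611 bp, at Ccp84Aa). These 5 clusters were not alike in the candidate lists. The 8 genes from Edg84A to Ccp84Aa (chr3R:6684445-6704903) had 6 pooled candidates in their span and 4, 5 and 3 in replicates 1, 2 and 3. The 12 Tweedle genes from TwdlM to TwdlD (chr3R:26619118-26641054) had 0 summits in 21937 bp in the optimal, pooled and all 3 replicate lists. With 5 kb added on each side, replicate 1 had 1 summit there and each of the other lists 0, against arm densities of 5.78 optimal and 21.8 pooled candidate summits per 100 kb. The 4 genes from TwdlX to Twdlalpha likewise had 0 summits in 13275 bp in all 5 lists, and with 5 kb added on each side 1, in replicate 3. The share of unique sequence around the 12 start sites from TwdlM to TwdlD had a median of 97.5% and a minimum of 83.7%.

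**Figure D5:**
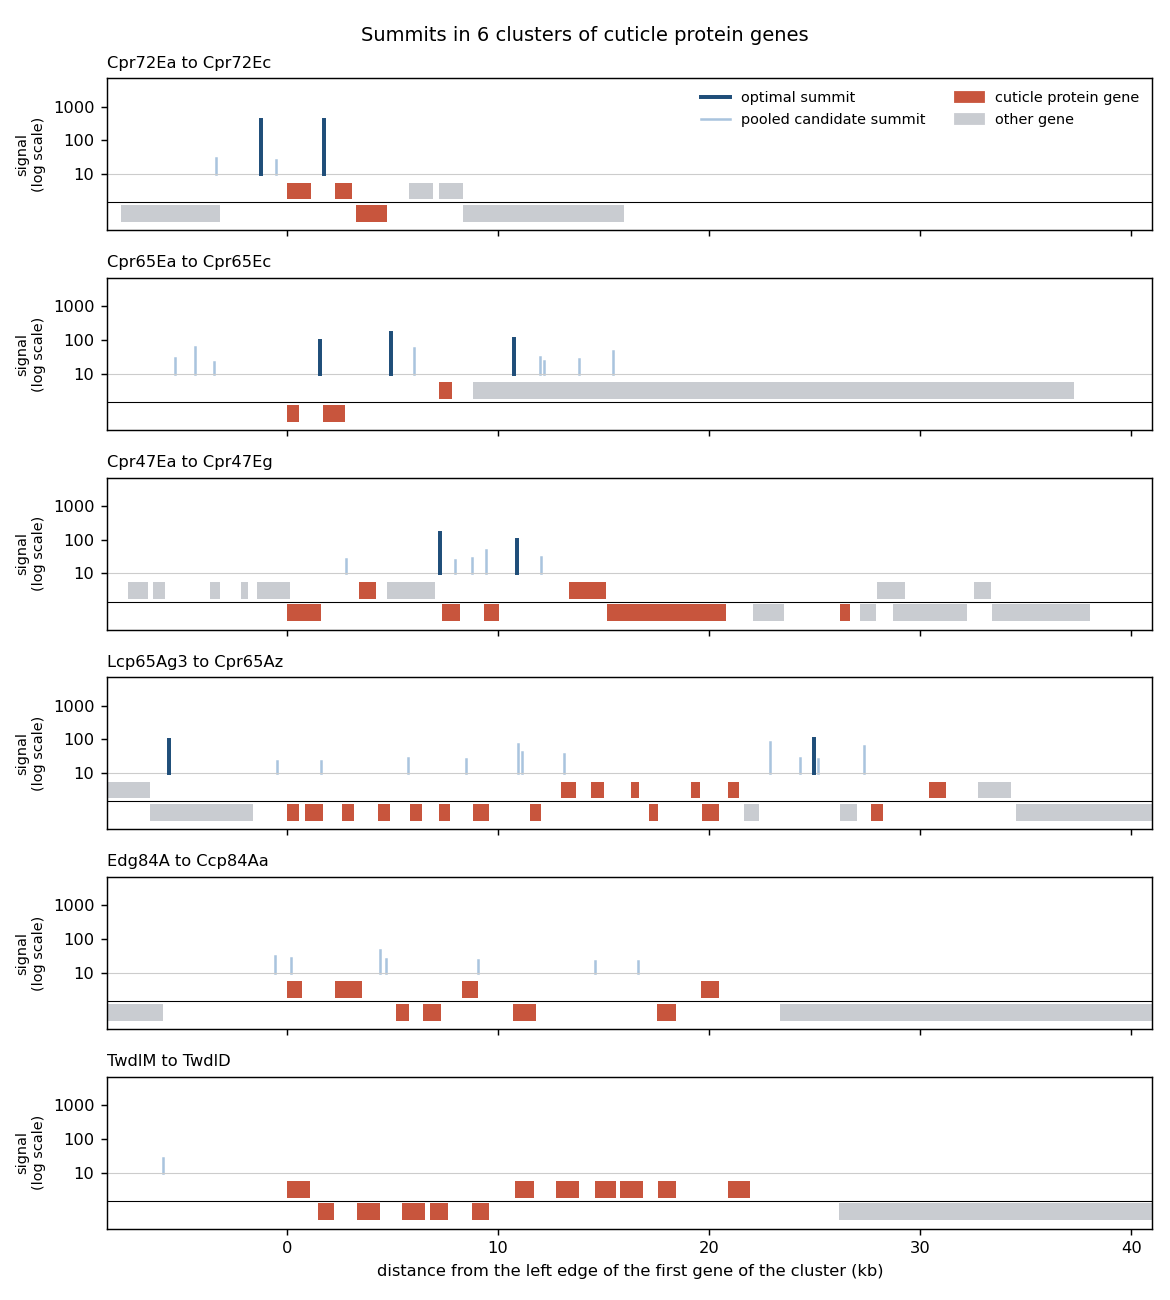
Maps of 6 clusters, drawn to 1 scale, with distance from the left edge of the first gene (x axis, kb). Bars above the line are summits of the optimal list (dark) and of the pooled candidate list (light) at the height of their signal value (y axis, log scale), and boxes are cuticle protein genes (red) and other protein-coding genes (grey), plus strand above the black line and minus strand below it. Optimal summits stand beside the Cpr72E, Cpr65E and Cpr47E genes, weak candidates lie among the Lcp65A and Ccp84 genes, and the span from TwdlM to TwdlD is empty.

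The promoters of cuticle protein genes, taken from 250 bases before to 50 after a start site, held TATAAA more often than all promoters and the DREF site at 1 start site. TATAAA was found in 98 of 132 member promoters (74.2%), against 42.2% of all 19607 promoters. On the gene's own strand, with the whole match between −40 and −21, it was found in 63 (47.7%), against 5.77%. The DREF site TATCGATA, common at genes active in many tissues, was found in 1 (0.758%), against 7.98%. The POU octamer ATGCAAAT was found in 13 (9.85%), against 3.45%, and ATGCAA in 48 (36.4%), against 21.4%. GAGAG was about as frequent in members (32.6%) as in all promoters (33.1%). AACNGGTT, a form of the Grainyhead site, was in 10 (7.58%), against 4.63%, and CAGGTAG in 0, against 1.70%. CAAGGTCA was in 2 (1.52%, Edg84A at −100 and Edg91 at +38), against 0.546%. Mean GC content was 44.5% in member promoters and 40.1% in all promoters. A match is only a run of letters, and members of a cluster can share it by descent. Promoters were counted per start site, so overlapping promoters of 1 gene can count the same match again, as for AACNGGTT at Edg91.

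The counts of summits at members with the octamer are small. The 12 members with ATGCAAAT in a promoter included Ccp84Ac, Cpr64Ad, Lcp3, Lcp4, TwdlK and TwdlY. Of these 12, 0 had an optimal summit within 1 kb, against 5% of all members, and 1 had one within 5 kb (8.33%, Cpr47Eb at 3852 bp), against 28.3%. For pooled candidates it was 3 within 1 kb (25%, against 29.2% of all members) and 10 within 5 kb (83.3%, against 71.7%). With 12 genes, no difference from the other members can be read from these counts. In the 101 bases around the 30 optimal summits near members, ATGCAAAT was found in 0, against 1.59% of the 8164 optimal summits, and ATGCAA in 2 (6.67%, both at Cpr12A), against 10.03%. Around the 48 pooled candidates within 1 kb of a member, ATGCAAAT was found in 1 (2.08%, against 1.79% of all 30000 pooled candidates) and ATGCAA in 7 (14.6%, against 10.7%). TATAAA was found in 3 of the 30 optimal windows (10%), against 22.2%, and GAGAG in 2 (6.67%), against 9.62%. With 30 windows, these shares are coarse. GC content was 32.4% in the windows near members and 33.0% in all.

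Other genes of cuticle building, taken from lists drawn up with earlier results of these data known, gave shares with the optimal list that varied between these lists. Of 33 genes of chitin synthesis, modification and turnover 10 had a summit within 1 kb (30.3%) and 19 within 5 kb (57.6%), led by the chitinase gene Cht7 (signal value 591), nst (258) and mmy (207), which act in making the chitin precursor. Of 12 genes of tanning and pigment 1 had one within 1 kb (8.33%), speck (369), and 5 within 5 kb (41.7%). Of 19 genes of other cuticle structure 4 had one within 1 kb (21.1%), among them the zona pellucida domain genes tyn (375) and qsm (333) and Vajk1 (121), and 13 within 5 kb (68.4%). Of 11 known regulators of cuticle genes at metamorphosis 9 had one within 1 kb (81.8%) and 10 within 5 kb (90.9%), with the nuclear receptor genes Eip75B (724) and usp (304) and the epidermal factor grh (413) the strongest. These lists stand against the same 21.3% and 42.2% of all genes as the cuticle protein genes, whose shares were 5% and 28.3%. The lists are small, and the part of gene length and of the number of start sites in these counts was not tested.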

How the data were processed

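The peak lists are in narrowPeak format on dm6, deposited by the authors. Candidate peaks were made from alignments and 1 control file, per replicate and for the 3 pooled, and reduced to the optimal list by the irreproducible discovery rate, per the labels' readme. Aligner, peak caller and threshold: not given in the sources used here. Peaks were ranked by the deposited signal value. The authors' −log10 of a q-value (2.49 to 4.08 in the optimal list) selected nothing. One summit sequence is not reported here. Lists on dm3, reads and the control were not analysed here. Replicate lists shared 0 identical rows, and 0 peaks exceeded an arm.

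Genes and start sites came from Ensembl release 115. Distances run from each start site to peak summits, and a gene counts by its nearest. No test was made, since there is 1 group. Counts are given with exact binomial 95% intervals beside all protein-coding genes. The counting was tested on simulated data with planted summits. Named genes are the members with an optimal summit within 1 kb, the 12 highest within 5 kb, the 10 highest with a candidate within 1 kb, Edg and Lcp1 to Lcp4, those next to 1 and 5 kb, the nearest in each larger cluster and 3 per comparison list. Other members were named after their values were seen. Bursalpha, Dat and Henna matched no symbol and were dropped. The members and lists were chosen with earlier results of these data known. Alternatives covered signal, overlap, assignment, start sites, cluster gaps and replicates. The software was Python 3.11.15 with matplotlib 3.10.9, scipy 1.17.1, pandas 2.3.3 and numpy 2.4.6.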

Additional observations from a re-analysis of the deposited data

How the results depend on the processing

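Of 54 alternatives to 7 counts, 33 stayed within 1.5 times the count reported and 21 moved by more. With only the higher-signal 50% of peaks, 2 cuticle protein genes had an optimal summit within 1 kb (1.67%, against 14.2% of all genes), 12 within 5 kb (10%, against 30.3%), 8 clusters had one and 15 genes had a pooled candidate within 1 kb (12.5%, against 28.8%, where the full list gave 29.2% against 37.4%). Counting a summit only for the nearest gene left 17 members with an optimal summit within 5 kb (14.2%, against 23.1%), 13 clusters, and 54 with a pooled candidate within 5 kb (45%, against 42.5%). Pooled candidates covered over at least 50% of their length in all 3 replicate lists lay within 1 kb of 11 members (9.17%, against 25.2%) and within 5 kb of 50 (41.7%, against 48.8%). At 80% coverage it was 7 and 44 members, and the share of all genes was not counted there. The 8164 highest peaks of each replicate gave means of 5.67 members within 1 kb and 36 within 5 kb, where the full lists gave 36.7 and 85.

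Leaving out each replicate in turn kept peaks covered in the top 8164 of both other lists, which is a stricter set still called from all 3. It gave 3 to 4 members within 1 kb and 25 to 29 within 5 kb, from the optimal as from the pooled list, and 16 to 18 clusters. The share of all genes was not counted for this set, so the drop cannot be read as one of the members alone. The means over the other 2 replicates' own lists were 34.5 to 38 and 81.5 to 87. No paired analysis was possible because there is 1 group. Depth is unknown, so a member without a summit was not detected in these lists, which is not the same as unbound. Repeated sequence around the start site limits 12 members, and where its other copies lie was not examined.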
